A study of Mus musculus with 8 samples.

Results

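The 10 immediate early genes *Fos*, *Fosb*, *Jun*, *Junb*, *Egr1*, *Egr2*, *Egr3*, *Ier2*, *Atf3* and *Nr4a1* were taken by symbol from the 45583 genes of the count table, and all 10 passed the filter on low counts. They were read in whole ovaries of 4 mice labelled WT and 4 labelled as lacking ghrelin-O-acyltransferase (GOAT KO, the enzyme gene *Mboat4*), all 3 weeks old, on a C57/Bl6 background and bred as littermates from heterozygous parents. The deletion was global, so it was not limited to the ovary. Under isoflurane anesthesia, 1 ovary per mouse was excised, frozen in liquid nitrogen and made into 1 library. Animals 1118, 1119, 1120 and 1121 were labelled WT, and animals 1139, 1140, 1141 and 1146 were labelled GOAT KO. Values of single libraries are given in this order.

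Immediate early genes are transcribed within minutes of a stimulus, from promoters that are already occupied by factors such as CREB, which binds cAMP response elements (CRE), and SRF, which binds the CArG box. Their mRNAs are short-lived, and most of their proteins are transcription factors that act on a later wave of genes. In granulosa cells they respond to gonadotropins through cAMP and MAP kinase, and in any tissue they also respond to mechanical handling, ischemia and heat. In whole ovary, fewer cells of a type and less RNA per cell cannot be told apart.

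The promoter stretches of 5 members are shown as a description of their sequence. Whether motifs bear on how these genes varied across libraries was not tested. Promoter windows from RefSeq (GRCm38.p6, 250 bases before to 50 bases after a start site) were found for 7 of the 10 genes, and not for *Egr1*, *Egr3* and *Ier2*. Each line gives the 150 bases just before the start site, 5′ to 3′ on the strand of the gene, with capitals for matches on either strand to the CRE half-site TGACG, the AP-1 site TGANTCA or the CArG box.
*Fos*, chr12:85473740-85473889, plus strand: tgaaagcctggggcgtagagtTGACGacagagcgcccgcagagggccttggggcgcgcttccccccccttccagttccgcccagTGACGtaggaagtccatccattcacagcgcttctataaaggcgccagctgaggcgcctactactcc
*Egr2*, chr10:67537720-67537869, plus strand, 1 of 5 windows of this gene: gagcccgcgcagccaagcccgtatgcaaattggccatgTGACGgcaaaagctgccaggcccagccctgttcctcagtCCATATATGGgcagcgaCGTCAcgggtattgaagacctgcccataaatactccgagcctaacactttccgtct
*Junb*, chr8:84978749-84978898, minus strand: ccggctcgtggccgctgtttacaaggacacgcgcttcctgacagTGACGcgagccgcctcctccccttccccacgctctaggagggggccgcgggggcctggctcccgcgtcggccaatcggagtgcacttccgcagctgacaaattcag
*Nr4a1*, chr15:101266696-101266845, plus strand: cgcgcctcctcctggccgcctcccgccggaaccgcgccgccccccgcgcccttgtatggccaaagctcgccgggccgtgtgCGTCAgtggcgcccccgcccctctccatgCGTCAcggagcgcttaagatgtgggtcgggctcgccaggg
*Jun*, chr4:95052223-95052372, minus strand: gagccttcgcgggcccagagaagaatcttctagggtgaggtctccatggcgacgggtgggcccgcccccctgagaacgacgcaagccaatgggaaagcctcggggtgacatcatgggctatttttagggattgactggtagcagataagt

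Within its whole window, *Fos* held 2 CRE half-sites, which began at -129 and -66 from the start site (0), and a TATA box (TATAAA) at -33. The window of *Egr2* shown held 2 half-sites, at -112 and -56, around a CArG box at -73. Of its 5 windows, 3 that overlap held these matches, 1 held another CArG box only, and 1 held no match. *Nr4a1* held 4 half-sites and 1 EGR site (GCGNGGGCG), the sequence that EGR proteins bind, and *Junb*, *Fosb* and *Atf3* held 1 half-site each. *Fosb* also held 1 EGR site, at -50, and *Junb* a TATA box, at 0. *Jun* held an exact match to none of the motifs searched. Of all 32851 windows of this length, 20.8% held the half-site, 1.63% a CArG box, 5.55% the EGR site, 7.81% the AP-1 site and 13.6% the TATA box. The full palindromic CRE (TGACGTCA, which contains the half-site on both strands) was in 1.79% of all windows and in none of these genes' windows. The stretch of *Jun* shown holds tgacatca, which differs from this CRE in 1 base, and near matches were not searched for in any window. Motifs outside the windows were not searched for either, so a gene without a match here can have one farther away. A match describes the sequence only and does not show binding.

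**Figure D1:**
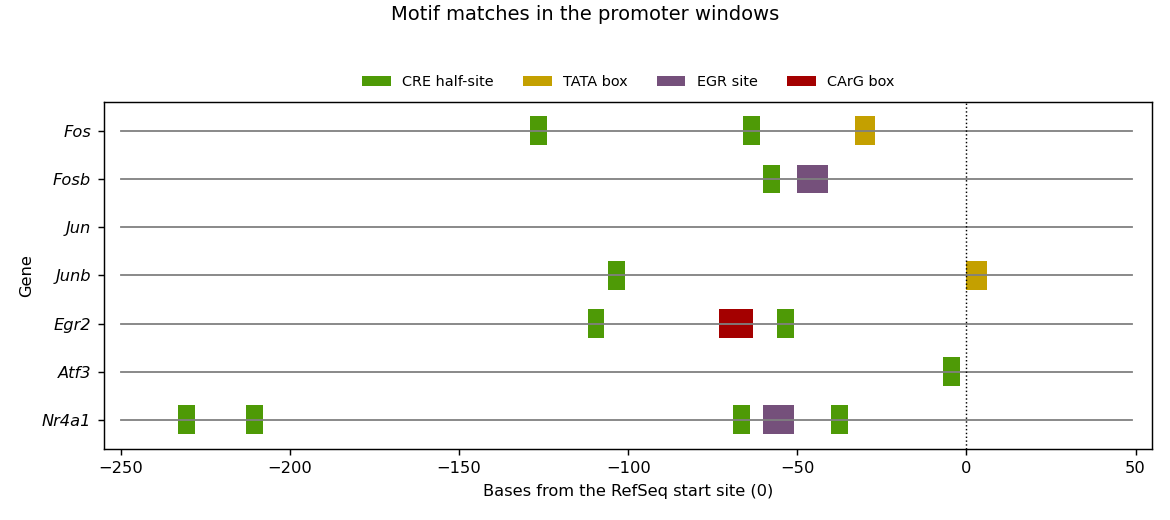
Exact motif matches on either strand in the RefSeq promoter windows of 7 immediate early genes, with the distance in bases from the start site (0, dotted line) on the x axis, 1 line per gene and 1 coloured block per match. *Fos* carries 2 CRE half-sites, as does *Egr2* in the window drawn (1 of its 5), *Nr4a1* 4 and *Jun* none.

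The counts on genes summed to between 16147216 and 19481798 per library, and all libraries came from 1 flow cell lane. The targeted gene *Mboat4* had 1, 1, 1 and 3 counts in the WT libraries and 5, 7, 7 and 8 counts in those labelled GOAT KO, which goes against the labels, so the directions below are those of the labels. The antisense gene *Gm39158* overlaps *Mboat4*, the use of strand in the counting is not given, and the deleted part of *Mboat4* is not given in the sources used here, so these few reads are a weak check of the labels. On a multidimensional scaling of the libraries GOAT KO 1139 lay apart, at 1.21 on the first dimension against -0.47 to 0.17 for the others. WT 1118 was highest on the second dimension, at 0.756 against -0.463 to 0.324 for the others. The study left out 1 library per group, and its text does not name them. Values for the 6 libraries without WT 1120 and GOAT KO 1139, a pair picked with earlier results of these data known that need not be the one the study left out, are given beside those for all 8. The ovary was recognizable by its markers, such as the oocyte gene *Gdf9* at 305 ± 28.5 (SD, n = 4) in the WT group and 310 ± 20.9 (SD, n = 4) in the other, in CPM (counts scaled to library size by TMM). The 7 adipose markers, of which *Lep* was under the filter, summed to 652 CPM in GOAT KO 1139 and to between 15.4 and 38.0 CPM elsewhere.

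All 10 immediate early genes were expressed in every library. With each level divided by exon length, *Egr1*, a zinc finger transcription factor, stood highest at 22.3 ± 7.77 CPM per kilobase (SD, n = 4) in WT libraries. *Jun* followed at 13.7 ± 2.43, *Ier2* at 13.5 ± 1.48, *Fos* at 13.0 ± 4.76 and *Nr4a1* at 12.1 ± 1.65 CPM per kilobase, and these 4 did not differ beyond their spread. The spread of *Egr1* also reached that of *Jun*. *Junb* lay at 6.0 ± 1.84 CPM per kilobase, and 4 genes lay far lower, with *Egr2* at 1.03 ± 0.305, *Atf3* at 0.839 ± 0.339, *Fosb* at 0.356 ± 0.0767 and *Egr3* at 0.281 ± 0.112 CPM per kilobase. The neighbours *Egr2* and *Atf3*, and *Fosb* and *Egr3*, overlapped within their spread.

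No immediate early gene differed between the genotypes past the threshold, and for none did the groups stand apart without overlap, as they did for 2.92% of all genes. In edgeR's quasi-likelihood test on all 8 libraries 0 of 10 were called at an adjusted p under 0.05, where 0.0241% of all 16601 genes tested were called, and DESeq2 and limma-voom also called 0. Unadjusted p values under 0.05 were found for 0 of 10 members against 4.62% of all genes, and the rule of the study, which asks for such a p together with a log2 fold change beyond 0.5 in either direction, called 0 of 10 against 1.67%. All 10 log2 fold changes lay below 0, between -0.039 and -0.44 with a median of -0.19, where 50.1% of all genes lay below 0 and the median of all genes was -0.000349. Without WT 1118, 7 of 10 lay below 0 and *Fos*, *Egr2* and *Atf3* stood at 0.12, 0.028 and 0.22. WT 1118 was the highest of 8 for 8 of the 10 genes, against 20.6% of all genes, a count chosen after its values were seen. The 14 genes of the FSH and cAMP response summed to 2683 CPM in WT 1118 and to between 3203 and 4499 CPM elsewhere, and the part of this in its high levels was not tested.

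**Figure D2:**
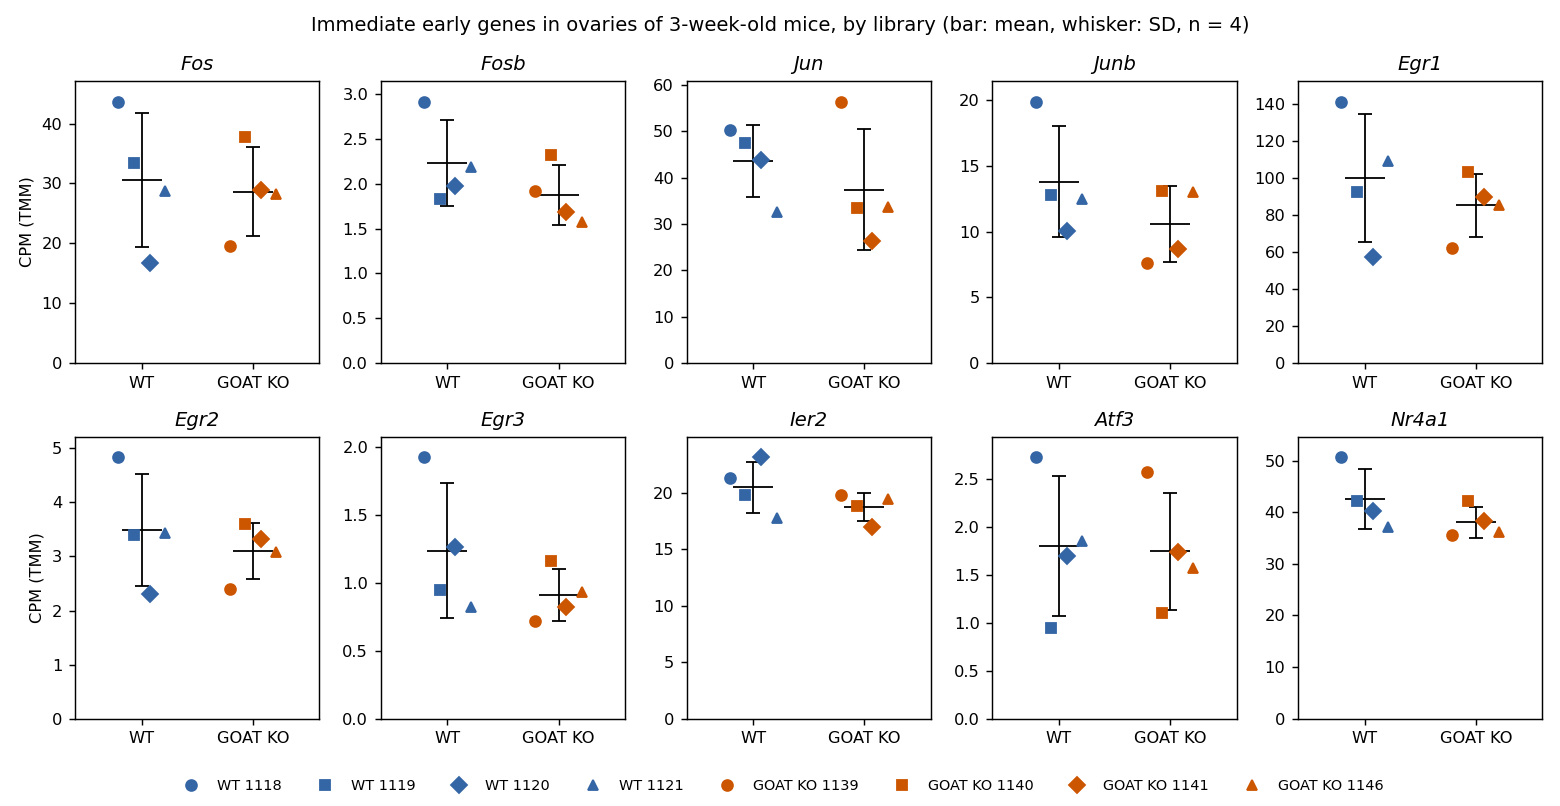
TMM-normalized CPM (y axis, from 0) of each immediate early gene in the 4 WT and 4 GOAT KO libraries (x axis), with 1 symbol per library, a horizontal bar at the group mean and whiskers of 1 SD. The groups overlap in all 10 panels, and WT 1118 is the highest library in 8 of them.

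The partners of the AP-1 complex, which binds DNA as a dimer of a FOS and a JUN protein, did not share 1 pattern. *Fos*, the prototype of the family, stood at 43.6, 33.4, 16.6 and 28.8 CPM in WT 1118, 1119, 1120 and 1121. Its levels were 19.6, 37.8, 28.9 and 28.3 CPM in GOAT KO 1139, 1140, 1141 and 1146. WT 1120 and GOAT KO 1139 were the lowest libraries, 1 of each genotype, and the highest level was 2.62 times the lowest. The log2 fold change between genotypes was -0.094 ± 0.26 (SE, 95% interval -0.67 to 0.48), and with 6 libraries -0.16 (-0.50 to 0.18).

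*Fosb*, which encodes a further FOS protein and was measured with only 27 to 47 counts per library, ranged from 1.83 to 2.91 CPM among the WT libraries and from 1.57 to 2.32 CPM among those labelled GOAT KO. WT 1118 was highest and GOAT KO 1146 lowest, and GOAT KO 1139 and 1140 lay within the WT range. The fold change was -0.25 ± 0.20 on the log2 scale (95% interval -0.70 to 0.21).

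*Jun*, the main partner of FOS, had 50.2, 47.4, 43.9 and 32.6 CPM in the WT libraries. The libraries labelled GOAT KO had 56.4, 33.4, 26.3 and 33.6 CPM. GOAT KO 1139, a library with low *Fos*, was here the highest of all 8, while the other 3 GOAT KO libraries lay beside or below the lowest WT library. The log2 fold change was -0.22 ± 0.21 (95% interval -0.68 to 0.25, unadjusted p = 0.321) in 8 libraries and -0.48 ± 0.15 (-0.82 to -0.14, unadjusted p = 0.00962, adjusted p = 0.427) in 6. Leaving out GOAT KO 1139 alone gave -0.49 ± 0.15 with an adjusted p of 0.883. The antisense gene *Junos* overlaps *Jun* and was counted at 0.733 to 1.43 CPM, and reads of such pairs cannot be told apart without strand.

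*Junb*, a JUN protein that can also restrain AP-1, had 19.9, 12.8, 10.04 and 12.5 CPM in the WT libraries, against 7.60, 13.1, 8.65 and 13.0 CPM in those labelled GOAT KO. The GOAT KO libraries split into a low and a high pair, and only WT 1118 stood above the high pair. Its log2 fold change of -0.38 ± 0.23 (95% interval -0.89 to 0.13) became -0.51 ± 0.22 without WT 1120 (unadjusted p = 0.0441, adjusted p = 0.463), the only case in which leaving out 1 library brought a member past the rule of the study. *Junb* overlaps the end of *Prdx2* on the other strand, a gene at 193 to 260 CPM.

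The EGR genes encode zinc finger factors that bind GC-rich sites. *Egr1*, on chromosome 18, had 141, 92.6, 57.5 and 109 CPM in the WT libraries, against 62.4, 103, 89.9 and 85.6 CPM in those labelled GOAT KO. *Egr2* had 4.83, 3.39, 2.31 and 3.43 CPM in the first group and 2.39, 3.61, 3.33 and 3.08 CPM in the second. Both genes were highest in WT 1118 and lowest in WT 1120 and GOAT KO 1139, as *Fos* was.

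The log2 fold change of *Egr1* was -0.23 ± 0.23 (95% interval -0.74 to 0.28) in 8 libraries and -0.30 ± 0.13 (-0.59 to -0.0050, unadjusted p = 0.0468, adjusted p = 0.525) in 6. That of *Egr2* was -0.16 ± 0.22 (95% interval -0.65 to 0.33). *Egr3*, with 12 to 31 counts per library, ranged from 0.818 to 1.92 CPM over the WT libraries and from 0.718 to 1.16 CPM over the others. WT 1118 stood above the rest, WT 1120 was the next highest, and the fold change of -0.44 ± 0.30 on the log2 scale (95% interval -1.09 to 0.22) had the largest error but that of *Atf3*.

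Of the remaining members, *Ier2*, whose product is a small nuclear protein, had the smallest range of the 10, its highest level being 1.36 times its lowest. It had 21.2, 19.8, 23.1 and 17.8 CPM in the WT libraries and between 17.0 and 19.7 CPM in the GOAT KO libraries. Here WT 1120, low for *Fos*, was the highest library, and the log2 fold change was -0.13 ± 0.096 (95% interval -0.34 to 0.084).

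*Atf3*, a CREB-family factor induced by cell stress, had 2.73, 0.945, 1.70 and 1.85 CPM in the WT libraries and 2.57, 1.10, 1.74 and 1.57 CPM in the GOAT KO libraries. WT 1118 and GOAT KO 1139 were its highest libraries, and its log2 fold change of -0.039 ± 0.33 (95% interval -0.76 to 0.68) left the widest interval. *Nr4a1*, an orphan nuclear receptor that gonadotropins induce in ovarian cells, had 50.6, 42.1, 40.2 and 37.1 CPM in the WT libraries and 35.5, 42.2, 38.3 and 36.1 CPM in the GOAT KO libraries. Apart from WT 1118 these lay close together, with a log2 fold change of -0.16 ± 0.099 (95% interval -0.38 to 0.059).

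**Figure D3:**
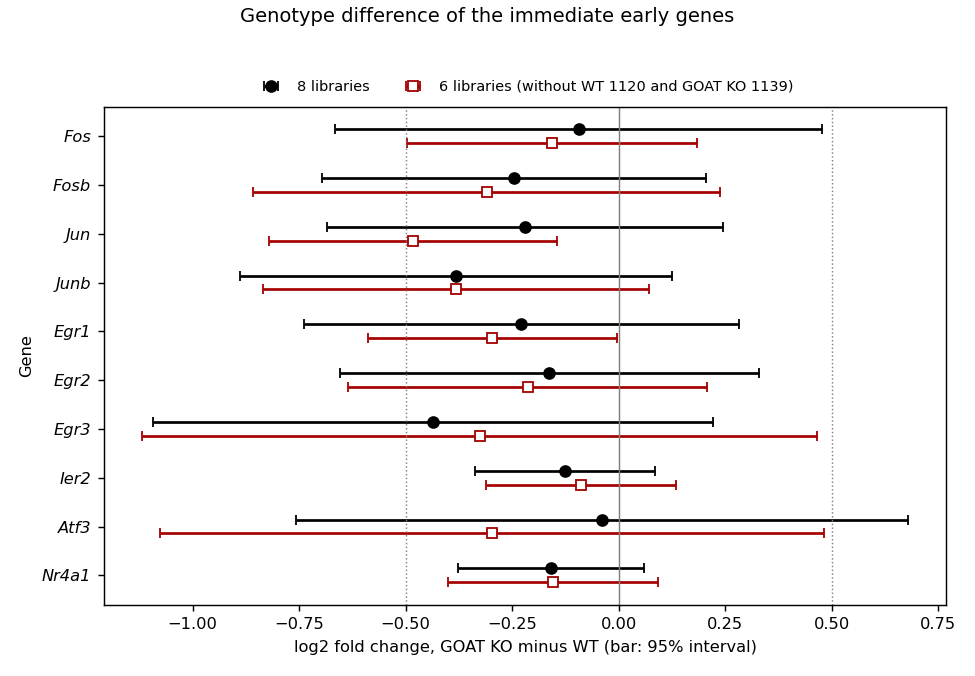
Log2 fold change, GOAT KO minus WT (x axis), of each immediate early gene (y axis) with its 95% interval, in all 8 libraries (filled) and in the 6 libraries without WT 1120 and GOAT KO 1139 (open). All points lie below 0, every interval of the 8 libraries includes 0, and with 6 libraries those of *Jun* and *Egr1* do not. The dotted lines mark the threshold of 0.5.

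In the 6 libraries 2 of 10 members, *Jun* and *Egr1*, had an unadjusted p under 0.05, against 9.46% of all 16641 genes tested. None passed at an adjusted p (0.12% of all genes) or by the rule of the study (2.39%), and all 10 lay below 0 (49.7% of all genes), with a median of -0.30. The exact permutation of the 8 libraries, which cannot give a two-sided p under 0.0286, gave values between 0.229 for *Ier2* and 0.971 for *Atf3*.

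Variation among libraries of the same genotype was large for several members. The biological coefficient of variation that edgeR estimated for *Egr1* was 2.38 times the trend at its expression level, a ratio above that of 99.1% of the genes tested. The ratio was 2.29 for *Fos*, 1.93 for *Jun* and 1.64 for *Junb*, above 98.9%, 97.9% and 96.1% of the genes. *Ier2* and *Fosb* lay at 0.808 and 0.775 times the trend, above 44.5% and 36.7%.

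*Fos*, *Egr1* and *Egr2* formed a group that varied together across the 8 libraries. Against log2 CPM of *Fos*, Pearson's r was 0.96 for *Egr2* (exact permutation p = 0.000198, adjusted over 16 genes 0.00317; Spearman's rho 0.93, exact p = 0.00223, adjusted 0.0243) and 0.94 for *Egr1* (exact p = 0.00119, adjusted 0.00635; rho 0.86, exact p = 0.0107, adjusted 0.0429). *Junb* had r = 0.77 (exact p = 0.025, adjusted 0.08) and rho = 0.71 (exact p = 0.0576, adjusted 0.154), and r = 0.78 without the 2 libraries named next (adjusted exact p = 0.0952). Without WT 1118 and WT 1120, the libraries farthest from the median of *Fos*, r was 0.94 for *Egr2* and 0.85 for *Egr1*, with adjusted exact p of 0.0778 and 0.0952 over 6 libraries, so the size of r stood but the adjusted p did not pass.

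*Jun*, *Ier2* and *Atf3* did not follow *Fos*, with r of -0.19, -0.32 and -0.20 (adjusted exact permutation p of 0.782, 0.637 and 0.782). Without the 2 farthest libraries r was -0.49, -0.17 and -0.90 for these genes, with adjusted exact p of 0.424, 0.837 and 0.0778, so the value for *Atf3* rested on which libraries were included. *Nr4a1* had r = 0.64 and rho = 0.76 (exact permutation p = 0.093 and 0.0368, adjusted 0.212 and 0.118), and r = 0.84 without the 2 libraries (adjusted exact p = 0.0222). *Fosb* and *Egr3* had r of 0.49 and 0.43 (adjusted exact permutation p of 0.438 and 0.494), and 0.30 and 0.89 without the 2 libraries (adjusted exact p of 0.740 and 0.0844). Across all 45 pairs of members, r ranged from -0.32 for *Egr1* and *Ier2* to 0.98 for *Egr1* and *Egr2*, with a median of 0.43. These pairs share the same 8 libraries and their scaling, and are given as a description.

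**Figure D4:**
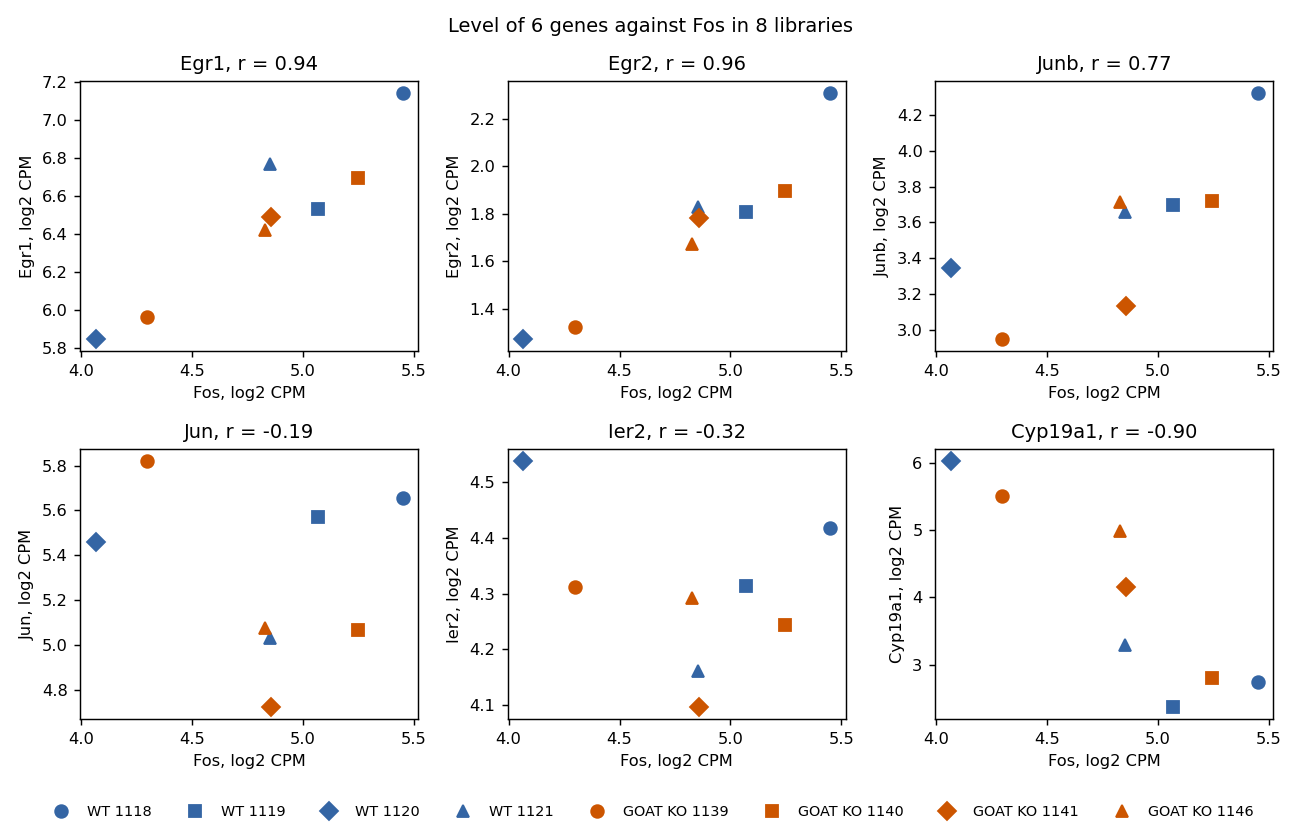
Log2 CPM of 6 genes (y axes) against log2 CPM of *Fos* (x axes), 1 symbol per library, with Pearson's r over the 8 libraries. *Egr1* and *Egr2* follow *Fos* with r of 0.94 and 0.96, *Jun* and *Ier2* do not (-0.19 and -0.32), and *Cyp19a1* runs the other way (-0.90).

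*Fos*, *Egr1* and *Egr2* were 3 of 10 members with WT 1120 and GOAT KO 1139 as their lowest libraries, where 11% of all genes had this order. This count was chosen after the values were seen. The same libraries were the highest pair for 5 of the 14 genes of the FSH and cAMP response, against 11.3% of all genes, while *Fst* and *Nr5a2* of that list were lowest in WT 1120, at 249 and 769 CPM. *Cyp19a1*, which encodes aromatase and is induced by FSH in granulosa cells, was at its highest there, with 65.0 and 45.2 CPM respectively, against 5.06 to 31.6 CPM elsewhere. Its r with *Fos* was -0.90 (exact permutation p = 0.000992, adjusted 0.00635; rho -0.90, exact p = 0.00456, adjusted 0.0243), and -0.85 without the 2 farthest libraries (adjusted exact p = 0.0778).

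*Inhba*, the activin and inhibin subunit gene, had r = -0.71 with *Fos* (exact permutation p = 0.0485, adjusted 0.129; rho -0.69, exact p = 0.0694, adjusted 0.159), and *Fshr*, the FSH receptor gene, r = -0.16 (adjusted exact p = 0.816). Without the 2 libraries these were -0.61 and 0.069 (adjusted exact p of 0.30 and 0.899). Of the heat shock genes compared, *Hspa1a*, an inducible one, had r = -0.38 with *Fos* and *Hspb1* -0.049 (adjusted exact permutation p of 0.596 and 0.907). The phosphatase gene *Dusp1*, itself an immediate early gene, had r = -0.051 (adjusted exact permutation p = 0.907). Without the 2 farthest libraries r was -0.69, 0.13 and -0.57 for these genes (adjusted exact p of 0.30, 0.895 and 0.327), so the value for *Dusp1* rested on which libraries were included. The globin gene *Hbb-bs* had r = 0.83 (exact permutation p = 0.0128, adjusted 0.0514) and rho = 0.90 (exact p = 0.00456, adjusted 0.0243), and r = 0.73 without the 2 libraries (adjusted exact p = 0.231). All 5 tested blood markers (*Slc4a1* was under the filter) were lowest in WT 1120 and GOAT KO 1139. With *Slc4a1* included, the 6 blood markers summed to 147 and 161 CPM there, against 172 to 592 CPM elsewhere. The steroidogenic genes *Cyp17a1* and *Star*, named here after their values were seen, were also highest in these libraries, with *Cyp17a1* at 355 CPM in the first and 601 CPM in the second against 42.4 to 138 CPM elsewhere, and *Star* at 31.9 and 234 CPM against 8.14 to 20.5 CPM. The part of blood, of these genes, and of the adipose markers in GOAT KO 1139, in the levels of the immediate early genes was not tested.

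**Figure D5:**
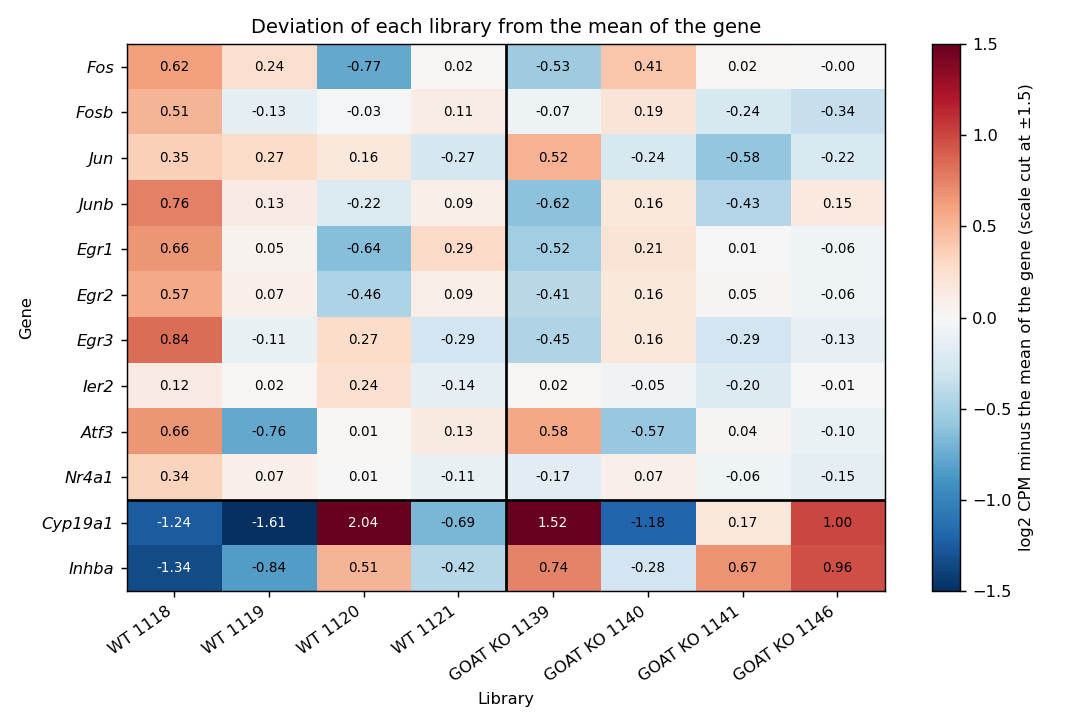
Log2 CPM of each immediate early gene, and of *Cyp19a1* and *Inhba* below the line, minus the mean of the gene over the 8 libraries (colour and printed value, colour scale ending at 1.5 on either side), by library. In WT 1120 and GOAT KO 1139, *Fos* lies at -0.77 and -0.53, *Jun* at 0.16 and 0.52, and *Cyp19a1* at 2.04 and 1.52.

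Of 35 other immediate early genes, 33 were tested (*Fosl1* and *Egr4* were under the filter), and 25 lay below 0 with a median log2 fold change of -0.085. *Klf4*, a zinc finger factor, was the 1 of 33 that had an unadjusted p under 0.05, against 4.62% of all genes, with group means of 7.69 ± 0.899 CPM for WT against 5.87 ± 0.556 CPM (SD, n = 4). Its log2 fold change was -0.39 ± 0.13 (adjusted p = 0.983). With 6 libraries *Zfp36*, whose product speeds the decay of mRNAs, and *Klf6* also had an unadjusted p under 0.05, at -0.39 and -0.22, which made 3 of 32 tested against 9.46% of all genes. Neither count stood above the share over all genes. WT 1120 and GOAT KO 1139 were the lowest libraries for 7 of the 33 and the highest for 5, against 11% and 11.3% of all genes. The most abundant were *Fosl2*, *Ctgf* and *Myc*, at 247, 238 and 127 CPM over all libraries, and all 3 were lowest in WT 1120 and GOAT KO 1139. *Nr4a3*, a relative of *Nr4a1* named here after its values were seen, had 6.94 CPM in GOAT KO 1139 and between 0.389 and 1.32 CPM elsewhere.

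Of the 10 AP-1 partners and corepressors, 0 had an unadjusted p under 0.05 in 8 libraries, and the median log2 fold change was -0.075. *Atf2*, which pairs with JUN, had one with 6 libraries, at -0.14, which was 1 of 10 against 9.46% of all genes. Of 23 genes upstream of the immediate early genes 1, *Creb1*, had an unadjusted p under 0.05, a share near the 4.62% of all genes, with group means of 131 ± 3.57 CPM for WT against 119 ± 3.78 CPM (SD, n = 4). Its groups did not overlap, as for 2.92% of all genes, and its log2 fold change was -0.14 ± 0.050 (adjusted p = 0.983), with an unadjusted p of 0.0501 without WT 1119 and 0.0575 without GOAT KO 1141. *Prkar2b*, a regulatory subunit of the cAMP-dependent kinase, stood at 0.17 ± 0.23 in 8 libraries and at 0.52 with 6 (unadjusted p = 0.000421, adjusted p = 0.163). With 6 libraries it was the 1 of 23 that passed the rule of the study, against 2.39% of all genes.

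Of 17 heat shock and cell stress genes, 4 were lower at an unadjusted p under 0.05 (*Hspb1*, *Mt2*, *Hsp90aa1* and *Hspa8*, with log2 fold changes of -0.44, -0.22, -0.15 and -0.38, against 4.62% of all genes in either direction), 0 by the rule of the study and 0 at an adjusted p. With 6 libraries *Hspb1* was no longer among them (-0.38, unadjusted p = 0.0756). Each of the 4 also had an unadjusted p above 0.05, of 0.0514 to 0.0747, without at least 1 of GOAT KO 1140, 1141 and 1146. The list had a median of -0.063. *Hspa8*, a constitutive chaperone gene, had 502 CPM in WT 1118 against 262 to 349 CPM elsewhere, and a log2 fold change of -0.18 without that library. WT 1120 and GOAT KO 1139 were the highest libraries for 8 of the 17 and the lowest for 0, against 11.3% and 11% of all genes.

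Of 14 genes of the FSH and cAMP response of granulosa cells, 6 were higher and 0 lower at an unadjusted p under 0.05 (4.62% of all genes in either direction), and 1, *Inhba*, passed the rule of the study (1.67%), with 0 at an adjusted p. With 6 libraries 9 were higher at an unadjusted p under 0.05 (9.46% of all genes in either direction), 5 passed the rule of the study (*Inhba*, *Inhbb*, *Cyp19a1*, *Fshr* and *Nppc*, against 2.39%) and 0 passed at an adjusted p. The median was 0.30 in 8 libraries and 0.41 in 6. The study drew several of these genes from the same libraries, so their direction is not independent evidence. *Inhba* had 98.4 ± 57.3 CPM in the WT group against 190 ± 60.9 CPM (SD, n = 4), a log2 fold change of 0.95 ± 0.36, and 1.36 with 6 libraries (adjusted p = 0.198). It did not pass the rule of the study without WT 1118, WT 1119, WT 1121 or GOAT KO 1146, with unadjusted p of 0.0623, 0.0662, 0.0508 and 0.0662. *Nppc*, the C-type natriuretic peptide gene, did not overlap between groups, as for 2.92% of all genes, with a log2 fold change of 0.49 ± 0.12 (adjusted p = 0.983). Of 14 tested genes of the ovulatory response to LH, *Tnfaip6* (0.83 ± 0.29) and *Cited4* (-0.89 ± 0.25) passed the rule of the study, against 1.67% of all genes. None passed at an adjusted p, and the study also drew *Cited4* from the same libraries. With 6 libraries *Cited4* passed the rule again, at -1.07 (2.39% of all genes). *Tnfaip6*, at group means of 0.535 and 0.968 CPM in 8 libraries, did not (0.80, unadjusted p = 0.0541), nor did it without GOAT KO 1140 (0.61, unadjusted p = 0.0550). The genes *Ptgs2*, *Areg* and *Sult1e1* were under the filter. The lists of smooth muscle and endothelium, and of blood, had 0 genes with an unadjusted p under 0.05 in 8 libraries. With 6 libraries the endothelial gene *Cdh5* had one, at -0.23 (unadjusted p = 0.0165, adjusted p = 0.447), and the blood list had 0. The leukocyte list had 2 of 6 tested with an unadjusted p under 0.05 in 8 libraries, against 4.62% of all genes. These were *Lyz2* and *Adgre1*, with log2 fold changes of -0.52 and -0.36 (adjusted p = 0.983 for both). *Lyz2* also passed the rule of the study in 8 libraries (1.67% of all genes) and in 6 (2.39%). All 6 tested adipose genes passed the rule of the study in 8 libraries, against 1.67% of all genes, with an adjusted p of 0.983 each. *Adipoq* had 96.7 CPM in GOAT KO 1139 and between 0.291 and 2.99 CPM elsewhere. In limma-voom the unadjusted p of *Cfd*, *Retn*, *Fabp4* and *Adipoq* lay between 0.270 and 0.364. Without WT 1120 and GOAT KO 1139, 1 adipose gene passed the rule, against 2.39%. Of the ovary markers 1 of 8, *Fshr*, had an unadjusted p under 0.05, against 4.62% of all genes. No tested gene of the lists for striated muscle (0 of 3) and oviduct (0 of 3) had one.

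Reads across splice junctions, deposited as separate counts, were read for the members that have introns. They come from the same libraries as the gene counts and are not independent of them. *Fos*, with 3 introns covered, had 66, 51, 5 and 38 junction reads in the WT libraries, against 12, 37, 37 and 21 in those labelled GOAT KO. The libraries with the fewest were again WT 1120 and GOAT KO 1139. Scaled to the gene counts of each library, the log2 ratio of GOAT KO to WT was -0.60 (exact permutation p = 0.429). Both later introns were listed at 0 in WT 1120, a library with 303 counts on the gene, and these zeros lower the WT mean. The first intron alone had 42, 14, 5 and 20 reads in the WT libraries and 6, 14, 16 and 8 in the others. *Nr4a1* had 519 junction reads in all, between 43 and 87 per library, with a log2 ratio of -0.17 (exact permutation p = 0.371). Here too 1 intron was listed at 0 in 4 libraries, and another at 0 in GOAT KO 1146, the library with 43 reads, against 5 to 20 elsewhere. Of its first exons, the junction of transcript Nr4a1-201 had 42 reads and the junctions of Nr4a1-202 had 11.

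The other members had too few junction reads to compare. *Egr2* had 12, *Atf3* 11, *Fosb* 4, *Egr3* 1 and *Junb* 0, and *Jun* and *Ier2* have no annotated intron. *Egr1* was listed at 0 in 4 libraries that each had at least 1043 counts on the gene, and had 33 junction reads in the others, so its junction values, from 1 annotated intron only, were not compared. A junction outside the annotation, on the other strand within *Egr1*, was listed with 58 reads.

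The 8 genes outside the members whose log2 CPM had the highest mean r with the 10 members were *Vps26a*, *Taf1d*, *Atn1*, *Prkab1*, *Ptprj*, *Elk3*, *Fnbp4* and *Gm16580*, with mean r of 0.648 to 0.658 over 8 libraries. They were picked for following the members over these same libraries, so a shared highest library is close to given by that choice. Like 8 of the 10 members, all of them were highest in WT 1118, as 20.6% of all genes were. *Gm16580* had 159 CPM there and between 79.6 and 86.8 CPM elsewhere.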

How the data were processed

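Per the labels, total RNA of each ovary was sequenced as 50 bp single reads. After quality screening, the authors mapped them on mm10 (GRCm38) with TopHat2 2.0.14, and they deposited raw counts per gene symbol. They also deposited counts of reads across splice junctions and, as percent of all reads, the reads mapped (85.92% to 87.02%). Their StringTie 1.0.4 assemblies were not used here. The counting tool and its use of strand are not given in the sources used here.

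Counts were compared in R 4.3.3 with edgeR 4.0.16 (TMM, filterByExpr with a minimum count of 10 and a minimum total of 15, quasi-likelihood test, Benjamini-Hochberg adjustment). The SE is the log2 fold change over the square root of F, and intervals use the degrees of freedom of that test. Checked alternatives were RLE factors, no filter, a mean of at least 1 CPM, DESeq2 1.42.0, limma-voom (limma 3.58.1), 6 libraries, and each library left out. Correlations used log2 CPM (prior count 2), with all permutations of 8 libraries. Exon lengths came from a GENCODE release for GRCm38 newer than that of the authors.

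Each library is 1 animal. The members, the 14 gene lists, the set of 6 libraries and the tests were chosen with earlier results of these data known. Genes named beside the members are, per list, those with an unadjusted p under 0.05 in 8 or 6 libraries (at most 5) and the most abundant, where they bear on a result, with exceptions named in the text. Counts of genes by highest or lowest library were added after the values were seen.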

Additional observations from a re-analysis of the deposited data

How the results depend on the processing

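No paired analysis was possible because WT and GOAT KO animals share no numbers. At an adjusted p, 0 members were called under every alternative run, and all 10 lay below 0 with RLE factors, without a filter, with a mean of at least 1 CPM, in DESeq2, in limma-voom and in 6 libraries. Leaving out 1 library gave 0 to 1 members by the rule of the study, and log2 fold changes from -0.30 to 0.12 for *Fos*, -0.32 to 0.028 for *Egr2* and -0.28 to 0.22 for *Atf3*, which changed sign, while the other 7 members stayed below 0. Outside the members, *Klf6* ranged from -0.33 to 0.046. By the rule of the study, 10 genes of the other lists were called, 5 with DESeq2, 5 with limma-voom and 5 to 18 with 1 library left out. Without WT 1120 the count was 18 and without GOAT KO 1139 it was 5. Of the 16 genes correlated with *Fos*, 3 passed at an adjusted p of Pearson's r (*Egr1*, *Egr2* and *Cyp19a1*), 4 at that of Spearman's rho (these and *Hbb-bs*), and 1 (*Nr4a1*) by r without the 2 libraries farthest from its median, where r of *Hspb1* and *Fshr* turned to 0.13 and 0.069. The cause was not tested. Over all genes, the rule of the study called 278, 437 without WT 1120 and 691 without a filter, and an adjusted p called 4, 7 without a filter, 13 with DESeq2, 14 without GOAT KO 1139 and 20 in 6 libraries. Depth limits *Egr3*, *Atf3* and *Fosb* most, at 12 to 47 counts per library.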
